A study of Mus musculus with 17 samples.

Results

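Cardiac fibroblasts (CFs) isolated 6 days post-infarction (dpi) were compared with CFs isolated at 1 dpi, the end against the start of a bulk RNA-seq time course in the mouse heart. The libraries compared were the 3 labelled 6 dpi and the 3 labelled 1 dpi, 6 of the 17 libraries of the series, and the genes were those on chromosomes 1 to 19. Of 29100 such genes listed, 13558 had at least 10 counts in at least 3 of the 17 libraries and were tested. All animals were C57BL/6 mice with the genotype Collagen1a1-GFP+, were 8 to 10 weeks old and had undergone myocardial infarction (MI), so that the labels give the day after MI as the one difference between the groups. Uninfarcted hearts were not analysed here, and each difference is between hearts that were all infarcted. After enzymatic digestion of the hearts, the cells were sorted as GFP+/CD31-/CD45-. GFP in this reporter is driven by the *Col1a1* promoter, so the sort was for cells holding GFP. It was set against cells bearing CD31, found on endothelium, or CD45, found on leukocytes. The study's methods also describe bead enrichment with an anti-feeder cell antibody and name staining with it as a further or other sort criterion. The other 11 libraries, from 2, 3, 4 and 5 dpi, entered the estimate of the spread between libraries and the levels by day.

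In an infarct, dying cardiomyocytes and arriving leukocytes release cytokines to which the resident fibroblasts respond with chemokines, proteases and acute phase proteins. The fibroblasts then divide, secrete the collagens, elastic fibres and proteoglycans of the scar, and some acquire the contractile proteins of smooth muscle, which defines the myofibroblast. Matricellular proteins such as periostin and CTHRC1 are secreted into this matrix and act on cells or on collagen without being its main building blocks, and the study uses *Cthrc1* as the marker of reparative cardiac fibroblasts (RCFs).

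Total counts were 8021815, 22029938 and 19690693 at 1 dpi and 16698824, 14015814 and 12848888 at 6 dpi, for replicates 1, 2 and 3. At these totals the floor of 3 counts, which allows for counting error and not for PCR copying, is between 0.136 and 0.374 CPM, where CPM are counts scaled to an equal library total. The study calls its libraries biological replicates, the labels do not tie them to animals, and the p-values measure the spread between these libraries. The fibroblast marker *Dcn*, the proteoglycan decorin, was at 5980, 9836 and 10705 CPM at 1 dpi and at 6188, 5569 and 7863 CPM at 6 dpi, in counts scaled to normalized library sizes. The 10 fibroblast markers summed to 15300, 22600 and 22000 CPM of total counts at 1 dpi and to 30400, 20100 and 35900 at 6 dpi. Of these, 4 were called higher at 6 dpi and 2 lower, by the test given below. *Ptprc*, which encodes CD45, had 9 counts in 1 dpi replicate 1 and 0 counts in the other 5 libraries, and *Pecam1*, which encodes CD31, had between 7 and 106 counts.

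The libraries also differed in ways that the labels do not give. *Xist*, the RNA of the silenced X chromosome, was at 208, 20.9 and 3.20 CPM of total counts at 1 dpi and 85.7, 71.7 and 255 at 6 dpi, while the summed Y-linked genes had 10.5, 66.0 and 61.3 CPM at 1 dpi and 0.06, 0.071 and 0.778 at 6 dpi. The share of Y-linked counts among Y-linked plus *Xist* counts was thus 4.79, 75.94 and 95.04% at 1 dpi and at most 0.3% at 6 dpi, and the sex-linked pattern and the day are separated within these 6 libraries by 1 dpi replicate 1 alone. Mitochondrial genes took 1.86, 1.49 and 1.45% of counts at 1 dpi and 0.46, 0.42 and 1.71% at 6 dpi, where replicate 3 stood apart. Markers of cardiomyocytes summed to 24.8, 32.3 and 49.5 CPM at 1 dpi and to 106, 229 and 200 CPM at 6 dpi, 7 of the 9 tested were called higher, and all 10 had counts in at least 1 library. Markers of mural cells, the pericytes and smooth muscle cells of vessels, summed to 40.4, 84.3 and 79.8 CPM and to 160, 132 and 144 CPM, and 3 of 6 were called higher, *Rgs5*, *Cspg4* and *Notch3*. No endothelial, leukocyte, mesothelial, Schwann cell or erythroid marker passed the test, and no lymphocyte marker had enough counts to be tested.

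**Figure D1:**
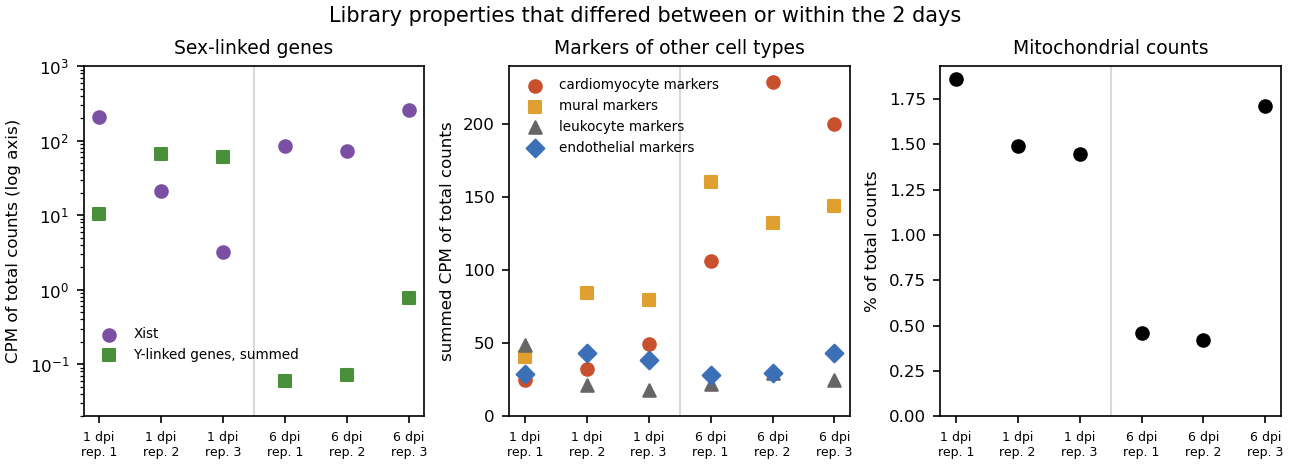
Each point is 1 of the 6 libraries. The panels give *Xist* and summed Y-linked counts (CPM of total counts, log axis), the summed CPM of marker lists of other cell types, and the share of mitochondrial counts (%). All 6 dpi libraries and 1 dpi replicate 1 have more *Xist* than Y-linked counts, and the cardiomyocyte and mural sums are higher in every 6 dpi library than in every 1 dpi library.

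Between 1 and 6 dpi, 1654 of the 13558 autosomal genes (12.2%) changed, of which 953 were higher at 6 dpi (7.03% of those tested) and 701 lower (5.17%). Genes were tested with the quasi-likelihood test of edgeR, with p-values adjusted by Benjamini-Hochberg across the 14030 genes tested on any chromosome, a gene was called at an adjusted p under 0.05, and the log2 fold change is the 6 dpi level minus the 1 dpi level. The median log2 fold change was 1.61 for the genes called higher and -1.24 for those called lower, against 0.033 over all autosomal genes tested. A rise of at least 8-fold was estimated for 171 of the called genes and a fall of at least 8-fold for 33. The 6 dpi libraries were all above the 1 dpi libraries for 17.3% of all autosomal genes and all below them for 15.4%, and 1607 of the 1654 called genes had no overlap. At the other end, 3488 genes had a 95% interval of the log2 fold change within -1 to 1.

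The size of this count changed when 1 library was left out, in fits with fewer samples, and the cause was not tested. It was 773 without 1 dpi replicate 1, 1000 without 1 dpi replicate 2 and 1103 without 1 dpi replicate 3. It was 786 without 6 dpi replicate 1 and 743 without 6 dpi replicate 2, and it was 2497 without 6 dpi replicate 3. In that last library the genes called higher stood a median of 1.34 above their 1 dpi mean on the log2 scale, against 1.69 and 1.78 in the other 6 dpi libraries. With the share of Y-linked counts as a term in the model (hereafter the sex-linked term), 661 genes were called, of which 544 were also called without it, and 1653 of the 1654 genes had the same direction. Against 1 dpi replicate 1 alone, 580 were called, of which 475 were also called with all 3. With raw library sizes in place of the trimmed mean of M-values (TMM) normalization the split turned, with 634 higher and 875 lower and a shift of the median of all genes by -0.168 on the log2 scale, so that 42.0% of the calls were higher against 57.6%.

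The largest rises, among called genes whose days did not overlap, included several genes of secreted proteins. *C1qtnf3* (ENSMUSG00000058914, chromosome 15, 10952332 to 10980150 on GRCm38), which encodes a secreted protein of the C1q and TNF family, was at 0, 0.618 and 1.56 CPM at 1 dpi and at 59.7, 33.4 and 62.4 CPM at 6 dpi. It was near the floor at the start and present in all 6 dpi libraries, with a log2 fold change of 5.96 ± 0.65 (SE, edgeR adjusted p = 9.2e-06). The imprinted RNA gene *H19* (chromosome 7, 142575529 to 142578143) went from 2.41, 4.16 and 4.59 to 170, 156 and 142 CPM, a log2 fold change of 5.35 ± 0.63 (edgeR adjusted p = 2.8e-05). *Fmod* (chromosome 1, 134037254 to 134048277), the collagen-binding proteoglycan fibromodulin, went from 8.36, 10.6 and 16.2 to 312, 267 and 230 CPM. Its log2 fold change was 4.52 ± 0.45, and every 6 dpi library was far above every 1 dpi library. The other genes among the 12 with the largest rise were *Matn4*, a cartilage matrix protein, *Col8a2*, *Ddah1*, *Ptn*, *Cthrc1*, *Cox6b2*, a subunit isoform of cytochrome oxidase, and 3 histone genes.

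*Cthrc1* (ENSMUSG00000054196, chromosome 15, 39076932 to 39087121) was at 63.6, 54.2 and 73.5 CPM at 1 dpi and at 1132, 857 and 1287 CPM at 6 dpi. The difference of 4.10 ± 0.31 on the log2 scale (edgeR adjusted p = 1.3e-07) had a 95% interval of 3.45 to 4.75, and it was 4.15 ± 0.52 with the sex-linked term. *Ddah1* (ENSMUSG00000028194, chromosome 3, 145758675 to 145894277), which degrades inhibitors of nitric oxide synthase, went from 6.08, 8.45 and 6.7 to 129, 117 and 179 CPM. It rose by 4.31 ± 0.31 (edgeR adjusted p = 9.3e-08). *Ptn*, the growth factor pleiotrophin, went from 11.8, 10.8 and 22 to 311, 261 and 219 CPM, 4.14 ± 0.38 on the log2 scale. For all 3 genes the calls held when any 1 library was left out. Their days did not overlap, which the rule for naming the 12 leading rises required.

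**Figure D2:**
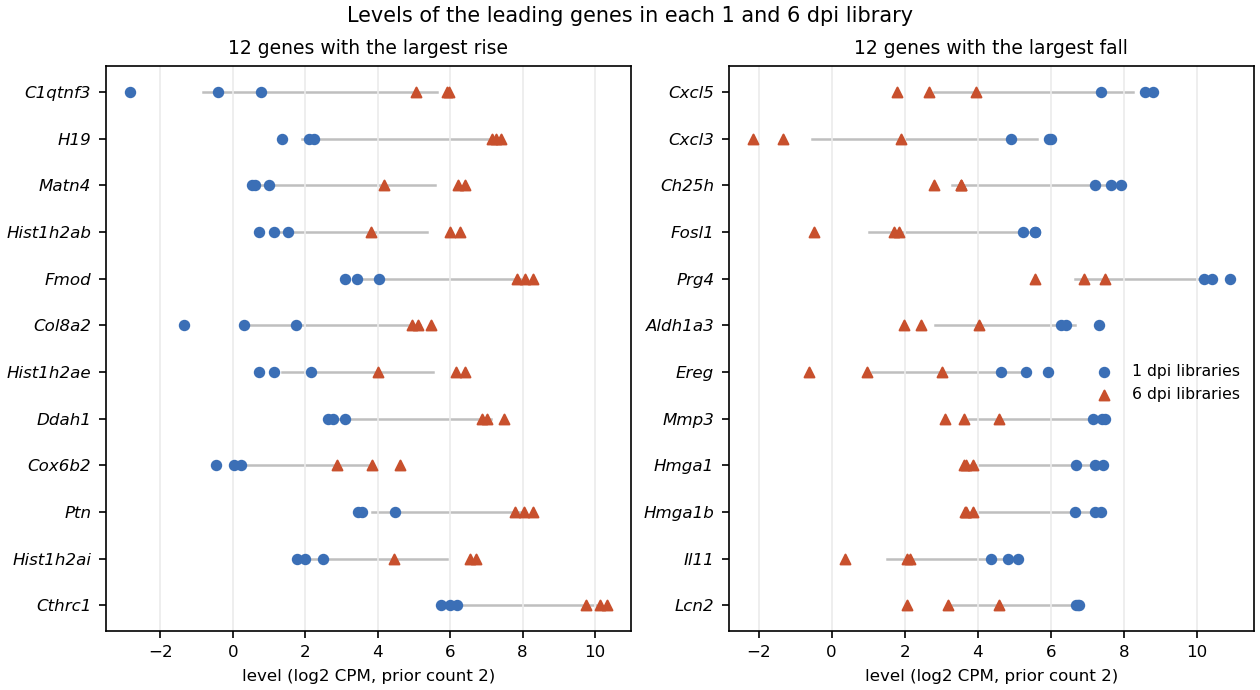
Levels (log2 CPM with a prior count of 2) of the 12 leading risers and the 12 leading fallers in each of the 6 libraries. The days do not overlap for any of the 24 genes, which the rule for naming them required; *Cthrc1* rose by 4.10 ± 0.31 and *Cxcl5* fell by 5.31 ± 0.56.

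The largest falls, again among called genes whose days did not overlap, included neutrophil chemokines, growth factors and matrix enzymes. *Cxcl5* (ENSMUSG00000029371, chromosome 5, 90759360 to 90761624), a neutrophil attractant, was at 441, 382 and 164 CPM at 1 dpi and at 6.2, 3.32 and 15.3 CPM at 6 dpi. It fell by 5.31 ± 0.56 on the log2 scale (SE, edgeR adjusted p = 8.2e-06). *Cxcl3*, a related chemokine, went from 61.3, 63.7 and 30.1 to 0.258, 0.0852 and 3.61 CPM, a fall of 5.29 ± 0.82. *Ch25h* (chromosome 19, 34473778 to 34475164), the enzyme that makes 25-hydroxycholesterol, went from 241, 200 and 147 to 11.4, 6.82 and 11.4 CPM. Its fall of 4.31 ± 0.30 had the smallest adjusted p of the genes named (7.7e-08, edgeR). *Prg4*, the lubricant proteoglycan lubricin, went from 1910, 1163 and 1361 to 47.6, 178 and 121 CPM, a fall of 3.68 ± 0.55. The remaining genes of the 12 were *Fosl1*, a subunit of the transcription factor AP-1, *Aldh1a3*, a retinoic acid synthesis enzyme, the growth factor *Ereg*, the cytokine *Il11*, the stromelysin *Mmp3*, the iron-sequestering acute phase gene *Lcn2*, and the chromatin protein gene *Hmga1* with its copy *Hmga1b*. Counts of *Hmga1* and *Hmga1b* differed by 2.94% over the series, so the share of each is uncertain. Exons of *Matn4*, *Ch25h*, *Fosl1*, *Prg4*, *Ereg* and *Hmga1* overlap those of another listed gene, as do those of 33 of the 122 genes named in all.

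The genes were then read by function in 25 lists of 552 distinct genes, of which 532 were on the autosomes and tested. The lists, apart from those taken from the study, were chosen with earlier results of these data known. Their shares are therefore a description and no test of a list. The largest shares of members called higher at 6 dpi were in collagens, proliferation genes and matricellular genes. The largest shares called lower were in ribosome biogenesis genes, in metallothionein and antioxidant genes and in interleukin and NF-kB genes.

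**Figure D3:**
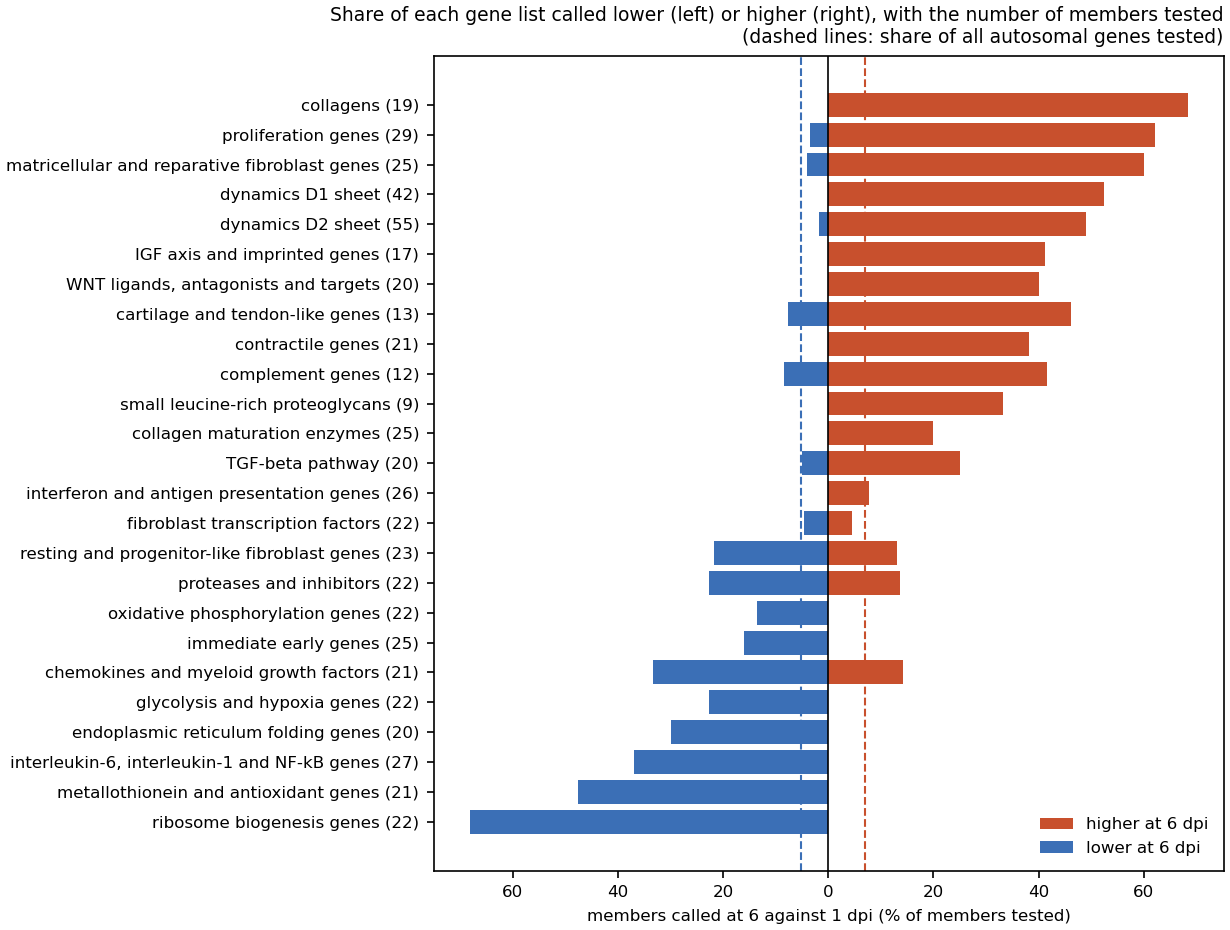
Bars give, for each gene list, the percentage of its tested members called higher at 6 dpi (right) and lower (left), with dashed lines at the shares of all autosomal genes, 7.03% and 5.17%. Collagens (68.4% higher) and ribosome biogenesis genes (68.2% lower) have the longest bars. Lists not taken from the study were chosen with earlier results of these data known.

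Of 19 collagen genes, 13 were called higher at 6 dpi (68.4%, against 7.03% of all autosomal genes) and none lower, and the median log2 fold change was 1.40. *Col1a1* (chromosome 11, 94936224 to 94953042), a chain of the main scar collagen and the gene whose promoter drives the sort reporter, was at 1604, 1998 and 1891 CPM at 1 dpi and at 10647, 8347 and 9771 CPM at 6 dpi. Its log2 fold change was 2.39 ± 0.39 (edgeR adjusted p = 6.6e-04), that of its partner chain *Col1a2* 1.41 ± 0.31 and that of *Col3a1* 1.29 ± 0.31, a call lost with the sex-linked term (adjusted p = 0.14). *Col8a2*, a short-chain network collagen, went from 0.253, 1.11 and 3.23 to 34.6, 30.9 and 44.1 CPM, and *Col11a1*, a minor fibrillar collagen known from cartilage, from 0.127, 1.48 and 0.391 to 7.75, 5.8 and 26.6 CPM. For both, every 6 dpi library was above every 1 dpi library, which the rule for naming the leading rises required of *Col8a2*. *Col6a3*, a chain of microfibrillar collagen VI, had a log2 fold change of 0.12 ± 0.30 and was not called, and neither were the basement membrane chains *Col4a1* and *Col4a2*, named after their values were seen (0.22 ± 0.24 and 0.19 ± 0.27). Between 10 and 13 collagens were called higher when 1 library was left out, and 9 with the sex-linked term.

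Of 25 enzymes and chaperones that hydroxylate, fold, cleave and cross-link collagen, 5 were called higher (20%) and none lower, with a median log2 fold change of 0.35. *P4ha3*, a prolyl hydroxylase subunit, went from 0.76, 4.45 and 3.03 to 43.3, 30.8 and 48.3 CPM, 3.80 ± 0.42 on the log2 scale (edgeR adjusted p = 1.3e-05), and the cross-linking enzyme *Loxl3* rose by 1.41 ± 0.32. The collagen chaperone *Serpinh1* was at 1019, 1514 and 1602 CPM at 1 dpi and at 1674, 1849 and 1625 CPM at 6 dpi and was not called (0.32 ± 0.33, edgeR adjusted p = 0.58). *Lox*, lysyl oxidase, was at 211, 136 and 153 CPM at 1 dpi and at 175, 156 and 600 CPM at 6 dpi, with replicate 3 alone high, and was not called (0.89 ± 0.40, edgeR adjusted p = 0.15). The count of 5 was 3 without 1 dpi replicate 1 or 2 or 6 dpi replicate 1 or 2, 8 without 6 dpi replicate 3, and 3 with the sex-linked term (list median 0.61).

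Matricellular and RCF genes were called higher for 15 of 25 (60%) and lower for 1, with a median of 1.33. *Thbs4*, a thrombospondin, went from 22.4, 38.1 and 42.3 to 776, 337 and 317 CPM, and *Eln*, the elastin of elastic fibres, from 86.6, 112 and 130 to 1034, 1384 and 1238 CPM. Their log2 fold changes were 3.79 ± 0.40 and 3.48 ± 0.35, and the days did not overlap. *Fn1* (fibronectin) was at 209, 162 and 230 CPM at 1 dpi and at 1133, 787 and 2632 CPM at 6 dpi and *Postn* (periostin) at 487, 331 and 442 CPM at 1 dpi and at 2126, 1032 and 3126 CPM at 6 dpi. They rose by 2.92 ± 0.36 and 2.32 ± 0.36, and replicate 3 was the highest and replicate 2 the lowest at 6 dpi for both. *Fndc1*, a fibronectin domain protein that the study names, rose by 2.03 ± 0.31. The activator of latent TGF-beta *Thbs1* was at 220, 204 and 258 CPM at 1 dpi and at 87.8, 46.6 and 153 CPM at 6 dpi. Its fall of 1.25 ± 0.33 (edgeR adjusted p = 0.019) was lost without 1 dpi replicate 1 (adjusted p = 0.053) or 3 (adjusted p = 0.064) and without 6 dpi replicate 1 (adjusted p = 0.085) or 2 (adjusted p = 0.094). The matricellular gene *Ccn1* was not called, with a log2 fold change of 0.17 ± 0.26. The number called higher was 10 without 1 dpi replicate 1 and 12 or 13 without any other library, and 10 with the sex-linked term.

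Small leucine-rich proteoglycans bind collagen and regulate its fibrils, and 3 of the 9 tested were called higher, *Fmod*, *Aspn* and *Prelp*. *Aspn*, asporin, went from 39.9, 65.3 and 79.9 to 290, 146 and 405 CPM (2.18 ± 0.45, edgeR adjusted p = 0.0038). The change of *Prelp* was 0.86 ± 0.27, its days overlapped, and its call was lost in each fit that left out 1 library other than 6 dpi replicate 3. *Dcn*, given above, was not called (-0.43 ± 0.34, adjusted p = 0.43).

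Cartilage and tendon-like genes were called higher for 6 of 13 and lower for 1, *Prg4*, with a median of 1.45. *Scx*, the tendon transcription factor scleraxis, went from 2.15, 4.7 and 6.99 to 58.8, 33.9 and 63.6 CPM (3.46 ± 0.49, edgeR adjusted p = 1.8e-04), and *Comp*, cartilage oligomeric matrix protein, from 12.7, 31.2 and 33.5 to 212, 291 and 242 CPM (3.26 ± 0.57). *Acan*, the cartilage proteoglycan aggrecan, was at 0, 0.0825 and 0.489 CPM at 1 dpi and at 7.23, 8.61 and 13.4 CPM at 6 dpi. It was near the floor at 1 dpi and above it in every 6 dpi library. *Mgp*, matrix Gla protein, was not called (0.81 ± 0.36, adjusted p = 0.14). The count of 6 was 5 or 6 when 1 library was left out and 6 with the sex-linked term. The median of 1.45 was 4.35 with the sex-linked term and 4.28 against 1 dpi replicate 1 alone. In that library *Acan*, *Chad*, *Matn3* and *Cilp2* were at 0 CPM, so their fold changes against it are poorly bounded. With the sex-linked term that of *Acan* was 15.54 ± 3.8 on the log2 scale. The part of these members in the 2 higher medians was not tested.

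Contractile genes were called higher for 8 of 21 (38.1%) and none lower, with a median of 0.77. *Palld*, the actin-bundling protein palladin, went from 6.33, 14.8 and 15.5 to 105, 81 and 96.5 CPM, 2.93 ± 0.39 on the log2 scale (edgeR adjusted p = 1.1e-04). *Myl9*, a myosin light chain of smooth muscle, went from 54.1, 91.9 and 82 to 372, 360 and 268 CPM (2.13 ± 0.32). *Acta2*, smooth muscle actin and a common myofibroblast marker, which was named after its values were seen, went from 87.1, 176 and 146 to 382, 352 and 529 CPM (1.63 ± 0.35). *Actn4*, the member of highest level among those not called, had a log2 fold change of 0.08 ± 0.46. The call of *Cnn1*, calponin (1.83 ± 0.52), was lost without 1 dpi replicate 1 or 2 or 6 dpi replicate 2. The count of 8 was 4 without 1 dpi replicate 1, 5 without 1 dpi replicate 2 or 6 dpi replicate 2, and 3 with the sex-linked term.

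The mural marker sum moved with the contractile genes, from at most 84.3 CPM at 1 dpi to at least 132 CPM at 6 dpi, and the cardiomyocyte sum from at most 49.5 to at least 106 CPM, and their part in the contractile result was not tested. In bulk samples, fewer cells of a type and less RNA per cell cannot be told apart. All 6 mural markers were above 3 counts in all 6 libraries, and *Myh11*, the smooth muscle myosin, which also defines mural cells, was not called (0.43 ± 0.61, edgeR adjusted p = 0.69). The cardiomyocyte gene *Tnnt2*, cardiac troponin T, had 16, 186 and 147 counts at 1 dpi and 356, 464 and 304 counts at 6 dpi.

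Among TGF-beta pathway genes, 5 of 20 were called higher, with a median of 0.05 that was -0.11 with raw library sizes. Those that rose encode a ligand, 3 members of the latent TGF-beta binding protein family and *Ski*, a repressor of SMAD factors. *Tgfb3*, the ligand, went from 34.7, 40 and 48.9 to 134, 118 and 141 CPM (1.67 ± 0.22, edgeR adjusted p = 1.1e-04), and the latent binding protein genes *Ltbp2* and *Ltbp3* rose by 1.88 ± 0.27 and 1.53 ± 0.23. With the sex-linked term (list median 0.46) 4 members were called higher. The count of 5 was 3 without 1 dpi replicate 1 or 6 dpi replicate 2.

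WNT ligands, antagonists and targets were called higher for 8 of 20 and lower for none, with a median of 1.12. *Sfrp2* (chromosome 3, 83766321 to 83774316), a secreted WNT-binding protein, went from 23.8, 25.8 and 29.9 to 277, 257 and 264 CPM. The libraries of each day lay close together, and the rise was 3.33 ± 0.29 (edgeR adjusted p = 1.2e-06). *Sfrp1*, a related antagonist, rose by 1.90 ± 0.24 and *Nkd2*, an intracellular inhibitor, by 1.92 ± 0.26. The count of 8 was 3 without 1 dpi replicate 2, 4 without 1 dpi replicate 1 or 3 or 6 dpi replicate 1 or 2, 7 without 6 dpi replicate 3, and 3 with the sex-linked term.

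In the list of the IGF axis and imprinted genes, 7 of 17 were called higher and none lower, with a median of 0.80. Besides *H19*, the imprinted genes *Mest* and *Meg3* went from 6.33, 5.9 and 15.3 to 53.2, 31.7 and 49.4 CPM and from 242, 260 and 316 to 773, 814 and 500 CPM. They rose by 2.27 ± 0.35 and 1.35 ± 0.31, and the days did not overlap. *Igfbp2*, an IGF-binding protein named after its values were seen, had no count at 1 dpi and 68 counts at 6 dpi, at least 25.9-fold higher against a floor of 3 counts over the 1 dpi libraries. Its call was lost without any 1 library other than 6 dpi replicate 3 and with the sex-linked term (adjusted p = 0.23), and that of *Meg3* was lost with that term (adjusted p = 0.072). *Igfbp7*, a secreted relative of these proteins, was not called (0.80 ± 0.37, edgeR adjusted p = 0.16). The count of 7 was 3 without 1 dpi replicate 2 or 3 or 6 dpi replicate 2, 4 without 1 dpi replicate 1 or 6 dpi replicate 1, and 2 with the sex-linked term (list median 1.44).

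Chemokines and myeloid growth factors were called lower for 7 of 21 (33.3%, against 5.17% of all autosomal genes) and higher for 3, with a median of -1.11. *Ccl2*, the monocyte attractant, was at 1153, 838 and 855 CPM at 1 dpi and at 87.5, 62 and 203 CPM at 6 dpi, a fall of 3.01 ± 0.48 (edgeR adjusted p = 4.3e-04). *Ccl7*, a related monocyte attractant, fell by 2.52 ± 0.58, a call lost without 6 dpi replicate 1 (adjusted p = 0.052) or 2 (adjusted p = 0.052). *Csf1*, the macrophage growth factor, which was named after its values were seen, went from 299, 267 and 241 to 91.8, 118 and 98.6 CPM. In the other direction, *Cxcl9*, an interferon-induced lymphocyte attractant, was at 0, 0.247 and 0.147 CPM at 1 dpi and at 4.78, 2.13 and 3.07 CPM at 6 dpi. *Cx3cl1*, fractalkine, went from 10.8, 16.1 and 10.5 to 38.3, 25.6 and 51.3 CPM (1.62 ± 0.31). *Ccl9*, a macrophage-attracting chemokine, rose by 2.04 ± 0.47, a call lost without 1 dpi replicate 2 (adjusted p = 0.056) or 3 (adjusted p = 0.05) and with the sex-linked term (0.74 ± 0.50, adjusted p = 0.41). The leukocyte markers summed to 48.9, 21 and 18 CPM at 1 dpi and to 21.9, 29.3 and 24.5 CPM at 6 dpi, which overlap. Of the 11 leukocyte markers, 5 were above 3 counts in all 6 libraries. The 1 marker at 0 counts in all 6 was *Adgre1*, which marks macrophages. The number called lower was 4 without 6 dpi replicate 1 and 3 without 6 dpi replicate 2, and with the sex-linked term (list median -0.62) 4 were called lower and none higher.

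The neutrophil chemokines *Cxcl1* and *Cxcl2*, on the same stretch of chromosome 5 as *Cxcl5* and *Cxcl3*, were named because their promoters are shown. *Cxcl1* was at 1914, 2049 and 1810 CPM at 1 dpi and at 627, 463 and 1027 CPM at 6 dpi, and *Cxcl2* was at 110, 69.8 and 72.2 CPM at 1 dpi and at 26.7, 7.16 and 31.5 CPM at 6 dpi. They fell by 1.45 ± 0.43 and 1.94 ± 0.47 (edgeR adjusted p = 0.032 and 0.011). The call of *Cxcl1* was lost without any 1 library other than 6 dpi replicate 3, without which its adjusted p was 0.014, and that of *Cxcl2* was lost without 1 dpi replicate 1 (adjusted p = 0.056) or 6 dpi replicate 2 (adjusted p = 0.05). With the sex-linked term the adjusted p was 0.16 and 0.036. Promoter windows were chosen by size of change and not by motif, among called list members that had a window. *Cxcl5* and *Ccl2*, which fell farther, had none. The windows of *Cxcl1* and *Cxcl2* are printed because both hold kappa B, the motif bound by NF-kB. Those of *Il11* and *Lcn2*, chosen by the same rule from the interleukin and NF-kB genes, do not hold it. The RefSeq windows on GRCm38.p6 run from 250 bases before to 50 bases after the start, on the plus strand, with the kappa B matches in capitals.
Cxcl1, chr5:90890995-90891294: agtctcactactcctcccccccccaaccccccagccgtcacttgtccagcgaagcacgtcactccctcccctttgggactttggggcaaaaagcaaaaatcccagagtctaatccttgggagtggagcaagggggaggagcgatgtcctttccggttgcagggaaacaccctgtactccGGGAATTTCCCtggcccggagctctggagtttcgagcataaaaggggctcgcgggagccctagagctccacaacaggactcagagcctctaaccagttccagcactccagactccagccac
Cxcl2, chr5:90903649-90903948: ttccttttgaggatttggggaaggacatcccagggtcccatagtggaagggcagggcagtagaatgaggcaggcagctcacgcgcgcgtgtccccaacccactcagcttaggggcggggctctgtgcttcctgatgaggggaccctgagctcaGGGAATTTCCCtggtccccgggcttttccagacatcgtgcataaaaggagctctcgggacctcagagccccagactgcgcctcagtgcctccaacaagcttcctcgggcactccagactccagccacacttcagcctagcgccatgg
In each window the 11 capital bases hold 2 overlapping matches, and the 11 bases are the same in both. Of 10326 tested autosomal genes with a window, 10.5% hold the kappa B motif on either strand, against 11.8% of the genes called lower and 12.4% of those called higher. The AP-1 motif (TGANTCA) was in 4.94% of windows and the TEAD motif (GGAATG) in 12.1%. The windows read for *Il11*, *Lcn2*, *Palld*, *Ddah1* and *Ptn* held none of the motifs searched. *Il11* has 2 windows and *Palld* 3, and only the window nearest the annotated gene start was read.

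The window of the contractile gene *Myl9* held a CArG box, the motif of serum response factor, at base -161 from the start, as 1.32% of all windows do, and a kappa B match at base -195. It is shown from 5′ to 3′, with the kappa B match and then the CArG box in capitals.
Myl9, chr2:156775214-156775513, plus strand: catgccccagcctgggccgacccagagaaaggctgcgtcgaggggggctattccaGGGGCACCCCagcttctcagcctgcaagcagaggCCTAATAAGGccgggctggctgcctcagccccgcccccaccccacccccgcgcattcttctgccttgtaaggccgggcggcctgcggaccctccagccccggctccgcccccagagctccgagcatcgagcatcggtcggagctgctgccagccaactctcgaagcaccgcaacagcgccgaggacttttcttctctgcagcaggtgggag
A match describes the letters of the window and does not show binding.

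Of 27 genes of interleukin-6, interleukin-1 and NF-kB signalling, 10 were called lower (37.0%) and none higher, with a median of -0.66. *Il11*, a cytokine of the interleukin-6 family, went from 34.2, 28.2 and 20.5 to 1.16, 4.01 and 4.3 CPM (fall of 3.13 ± 0.54, edgeR adjusted p = 8.9e-04). *Ptgs2*, the inducible prostaglandin synthase, went from 114, 97.7 and 93.7 to 10.9, 6.99 and 28.8 CPM (fall of 2.71 ± 0.41), and *Lcn2* from 103, 109 and 106 to 4, 23.7 and 8.99 CPM (fall of 3.12 ± 0.67). For all 3, every 6 dpi library was below every 1 dpi library, which the rule for naming the leading falls required of *Il11* and *Lcn2*. *Il6* itself, named after its values were seen, was at 245, 72.7 and 121 CPM at 1 dpi and at 17.7, 10.5 and 81.8 CPM at 6 dpi and was not called (-1.99 ± 0.74, edgeR adjusted p = 0.084). The inhibitor *Nfkbia*, a direct NF-kB target, had a log2 fold change of -0.38 ± 0.30 and overlapped between the days. Between 8 and 13 members were called lower when 1 library was left out, and 7 with the sex-linked term.

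Immediate early genes and stress chaperones were called lower for 4 of 25 (16%), with a median of -0.27. *Fos*, the founding member of the AP-1 family, had a log2 fold change of -0.01 ± 0.29, and was at 1307, 1982 and 1897 CPM at 1 dpi and at 1920, 1861 and 1372 CPM at 6 dpi. *Fosl1* went from 47, 47.2 and 37.3 to 0.581, 3.15 and 3.46 CPM (fall of 4.21 ± 0.73, edgeR adjusted p = 9.7e-04). The heat shock protein genes *Hspa1a* and *Hspa1b* fell by 1.66 ± 0.45 and 2.15 ± 0.55. They are near-identical copies whose counts differed by 31.04% over the series. Both calls were lost without 1 dpi replicate 2 or 6 dpi replicate 2, when 2 members of the list were called, and 1 was with the sex-linked term (list median 0.05).

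Among 22 proteases and inhibitors, 3 were called higher and 5 lower, with a median of -0.01. *Mmp3* went from 179, 167 and 141 to 8.52, 12.1 and 23.8 CPM (fall of 3.45 ± 0.64, edgeR adjusted p = 0.0019) and the urokinase receptor *Plaur* from 89.8, 116 and 74 to 14.9, 8.61 and 18.4 CPM (fall of 2.74 ± 0.36). The gelatinase *Mmp2* and the inhibitor *Timp2* rose by 0.93 ± 0.27 and 1.19 ± 0.26, and *Mmp23*, a membrane-bound metalloprotease, by 1.93 ± 0.30. The call of *Mmp2* was lost without 1 dpi replicate 1 or 2 or 6 dpi replicate 1 or 2. The number called lower was 3 without 1 dpi replicate 3 or 6 dpi replicate 1 or 2, and with the sex-linked term (list median 0.31) 2 were called higher and 2 lower.

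Ribosome biogenesis genes, which make ribosomal RNA and assemble ribosomes in the nucleolus, were called lower for 15 of 22 (68.2%) and higher for none, with a median of -1.21, and all 22 estimates were below 0. *Npm1*, the nucleolar chaperone nucleophosmin, went from 1018, 757 and 574 to 105, 75.2 and 372 CPM (fall of 2.09 ± 0.47, edgeR adjusted p = 0.007), with 6 dpi replicate 3 the highest of its day. *Gnl3*, nucleostemin, went from 129, 76.3 and 66.5 to 19.7, 21.5 and 30.6 CPM (fall of 1.92 ± 0.34), and *Wdr12*, an assembly factor of the large subunit, fell by 2.04 ± 0.37. The count of 15 was 8 without 1 dpi replicate 1 or 6 dpi replicate 1, 9 without 6 dpi replicate 2, and 10 with the sex-linked term.

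Endoplasmic reticulum folding genes were called lower for 6 of 20 (30%) and higher for none, with a median of -0.77. *Hspa5*, the chaperone BiP, went from 1066, 1097 and 1430 to 186, 180 and 630 CPM (fall of 1.85 ± 0.48, edgeR adjusted p = 0.017). Its call was lost without 1 dpi replicate 3 (adjusted p = 0.054) and without 6 dpi replicate 1 (adjusted p = 0.094) or 2 (adjusted p = 0.091). *Creld2*, a folding factor induced by unfolded protein stress, fell by 1.30 ± 0.29, and *Calr*, calreticulin, had a log2 fold change of -0.24 ± 0.31. The count of 6 was 1 without 6 dpi replicate 1, 2 without 6 dpi replicate 2, 3 without 1 dpi replicate 3 and 10 without 6 dpi replicate 3, and none was called with the sex-linked term.

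Metallothionein and antioxidant genes were called lower for 10 of 21 (47.6%) and higher for none, with a median of -0.83. *Mt2*, a metal-binding protein, went from 6927, 2409 and 3968 to 538, 739 and 453 CPM (fall of 2.94 ± 0.59, edgeR adjusted p = 0.0032). *Hmox1*, heme oxygenase, went from 174, 283 and 324 to 41.8, 29.7 and 56.7 CPM (fall of 2.61 ± 0.28, edgeR adjusted p = 8.3e-06). *Slc7a11*, the cystine importer, had 201 counts over the 1 dpi libraries and 3 counts over the 6 dpi libraries. The ferritin light chain *Ftl1* overlapped between the days (0.40 ± 0.34). Between 7 and 10 members were called when 1 library was left out, and 9 with the sex-linked term (list median -1.26).

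Of 22 glycolysis and hypoxia genes, 5 were called lower (22.7%) and none higher, with a median of -0.50. The glucose transporter *Slc2a1* went from 69.1, 58.6 and 60.8 to 9.75, 10.1 and 13.8 CPM (fall of 2.49 ± 0.41, edgeR adjusted p = 6.6e-04). *Ldha*, lactate dehydrogenase, went from 674, 743 and 601 to 260, 199 and 337 CPM (fall of 1.34 ± 0.32), a call lost without 6 dpi replicate 2 (adjusted p = 0.067). *Aldoa*, a glycolytic aldolase, had a log2 fold change of -0.69 ± 0.29 and was not called. The count of 5 was 3 without 1 dpi replicate 1 or 2, 2 without 6 dpi replicate 1, 1 without 6 dpi replicate 2, and 1 with the sex-linked term (list median -0.31). Of 22 nuclear genes of oxidative phosphorylation, 3 were called lower (13.6%), with a median of -0.18 that was -0.35 with the sex-linked term. They were *Cycs*, *Cyc1* and *Uqcrc2*, which fell by 1.17 ± 0.36, 1.09 ± 0.27 and 0.92 ± 0.27. No call was left without 1 dpi replicate 2 or 6 dpi replicate 2 or with the sex-linked term, and 1 was left without 1 dpi replicate 1 or 3 or 6 dpi replicate 1.

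Proliferation genes were called higher for 18 of 29 (62.1%) and lower for 1, with a median of 2.15. *Kif23*, a kinesin of cytokinesis, went from 0.127, 0.701 and 0.88 to 4.65, 5.11 and 6.38 CPM (3.07 ± 0.49, edgeR adjusted p = 4.5e-04), and *Bub1b*, a spindle checkpoint kinase, from 0.76, 0.907 and 1.03 to 7.36, 7.41 and 11.5 CPM (3.25 ± 0.52). *Mki67*, the gene of the Ki-67 antigen, named after its values were seen, went from 1.65, 1.36 and 2.44 to 20.1, 8.01 and 12.8 CPM. *Mcm5*, a subunit of the replicative helicase, was at 22.9, 34.5 and 24.1 CPM at 1 dpi and at 10.3, 8.78 and 15.1 CPM at 6 dpi. Its fall of 1.26 ± 0.35 was lost without 1 dpi replicate 2 (adjusted p = 0.098) and without 6 dpi replicate 1 (adjusted p = 0.099) or 2 (adjusted p = 0.11). *Pcna*, the replication clamp, overlapped between the days and was not called (-1.12 ± 0.41, adjusted p = 0.077). Between 15 and 18 members were called higher when 1 library was left out, and 15 with the sex-linked term.

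All 12 tested H2A genes of the *Hist1* cluster, which supply histones during DNA synthesis, were called higher at 6 dpi, by 3.49 to 4.59 on the log2 scale, and summed to 111, 151 and 69.5 CPM at 1 dpi and to 2352, 2096 and 620 CPM at 6 dpi. Replicate 3 had the lowest sum of the 6 dpi libraries but lay above every 1 dpi library. These genes are near-identical copies, the counts of *Hist1h2ao* and *Hist1h2ap* differed by 0.38% over the series, and the 12 calls are not separate observations. The libraries were primed on poly-A RNA, and how far these counts follow all histone RNA of the cells, or DNA synthesis, was not tested. *Hist1h2ab*, *Hist1h2ae* and *Hist1h2ai* were not called with the sex-linked term (edgeR adjusted p = 0.11, 0.1 and 0.071).

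Complement and C1q-related genes were called higher for 5 of 12, with a median of 1.08. Besides *C1qtnf3*, its relatives *C1qtnf6* and *C1qtnf2* rose by 2.43 ± 0.35 and 2.04 ± 0.35. *C3*, the central component, overlapped between the days (0.83 ± 0.44). The number called higher was 3 without 1 dpi replicate 1 or 6 dpi replicate 2, and 5 with the sex-linked term (list median 1.68).

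Interferon and antigen presentation genes were called higher for 2 of 26 (7.69%), near the 7.03% of all autosomal genes, with a median of 0.33. They were *Ifit3* and *Irf7*, an antiviral effector and a transcription factor of the interferon response (1.49 ± 0.39 and 1.34 ± 0.34). Neither was called without 1 dpi replicate 1 or 3 or 6 dpi replicate 1 or with the sex-linked term (list median 0.62), and 1 was called without 1 dpi replicate 2 or 6 dpi replicate 2. *B2m*, a subunit of class I antigen presentation, was at 1607, 1146 and 1779 CPM at 1 dpi and at 2619, 2870 and 3079 CPM at 6 dpi and was not called (0.92 ± 0.32, edgeR adjusted p = 0.064).

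Resting and progenitor-like fibroblast genes were called higher for 3 of 23 and lower for 5, with a median of 0.14 that was -0.13 with raw library sizes. *Hsd11b1*, which activates glucocorticoids, went from 90, 269 and 233 to 35.8, 17.4 and 44.9 CPM (fall of 2.59 ± 0.48, edgeR adjusted p = 0.0019). With the sex-linked term its log2 fold change was -1.44 ± 0.59 and the call was lost (adjusted p = 0.16). *Adh1*, an alcohol and retinol dehydrogenase, fell by 2.21 ± 0.53, a call lost without 6 dpi replicate 1 (adjusted p = 0.064) and with the sex-linked term (-0.98 ± 0.69, adjusted p = 0.43). The PDGF receptor gene *Pdgfra*, a fibroblast marker named after its values were seen, went from 340, 278 and 278 to 117, 110 and 163 CPM. *Cd248*, endosialin, rose by 1.56 ± 0.31, and *Gsn*, gelsolin, was not called (0.50 ± 0.47). The number called lower was 2 without 6 dpi replicate 1 and 3 without 1 dpi replicate 2, and the number called higher was 1 without 1 dpi replicate 1 or 2 or 6 dpi replicate 1 or 2. With the sex-linked term (list median 0.81) 2 were called higher and 1 lower.

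Among 22 fibroblast transcription factors, 1 was called higher and 1 lower (4.55% each), with a median of 0.11 that was -0.07 with raw library sizes. *Runx1* went from 33.7, 29.6 and 25.9 to 95.8, 65.3 and 76.7 CPM (1.42 ± 0.26, edgeR adjusted p = 0.0019) and *Cebpb*, an inflammatory factor, from 227, 329 and 287 to 139, 126 and 113 CPM (fall of 1.16 ± 0.25). Both calls held without any 1 library, and 3 members were called lower without 6 dpi replicate 3. Neither was called with the sex-linked term (adjusted p = 0.1 and 0.15), when the list median was 0.19.

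Other abundant genes had narrow intervals around 0, and for 49 autosomal genes the 95% interval lay within -0.5 to 0.5. The 6 of these with the highest level were *Rac1*, *Rab2a*, *Klf6*, *Rhoa*, *Ddost* and *Ywhab*, which encode small GTPases, a transcription factor, a subunit of the glycosylation complex and a signalling adaptor. *Rac1* was at 301, 321 and 281 CPM at 1 dpi and at 290, 287 and 329 CPM at 6 dpi (0.01 ± 0.23).

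The levels on the days between are a description, since those days share their 1 dpi reference with the 6 dpi difference. The median collagen level stood above that of 1 dpi by 0.51 log2 CPM at 2 dpi, by 0.82 at 3 dpi and by 1.17 at 4 dpi. It stood 1.38 above in the single 5 dpi library and 1.38 above at 6 dpi. Proliferation genes stood at 2.31 at 6 dpi after 3.68 at 3 dpi and 3.79 at 5 dpi. Cartilage and tendon-like genes stood at 0.18 at 3 dpi and 2.28 at 6 dpi, and ribosome biogenesis genes at -0.75 at 2 dpi, -0.33 at 3 dpi and -1.21 at 6 dpi. Of the 953 genes called higher, 234 first passed the midpoint between their 1 and 6 dpi means at 2 dpi, 199 at 3 dpi, 222 at 4 dpi and 298 later. For the 701 called lower, these numbers were 136, 133, 120 and 312. The 2, 3 and 5 dpi libraries had more Y-linked than *Xist* counts and the 4 dpi libraries the reverse, so the day and the sex-linked pattern changed together between 3 and 4 dpi.

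**Figure D4:**
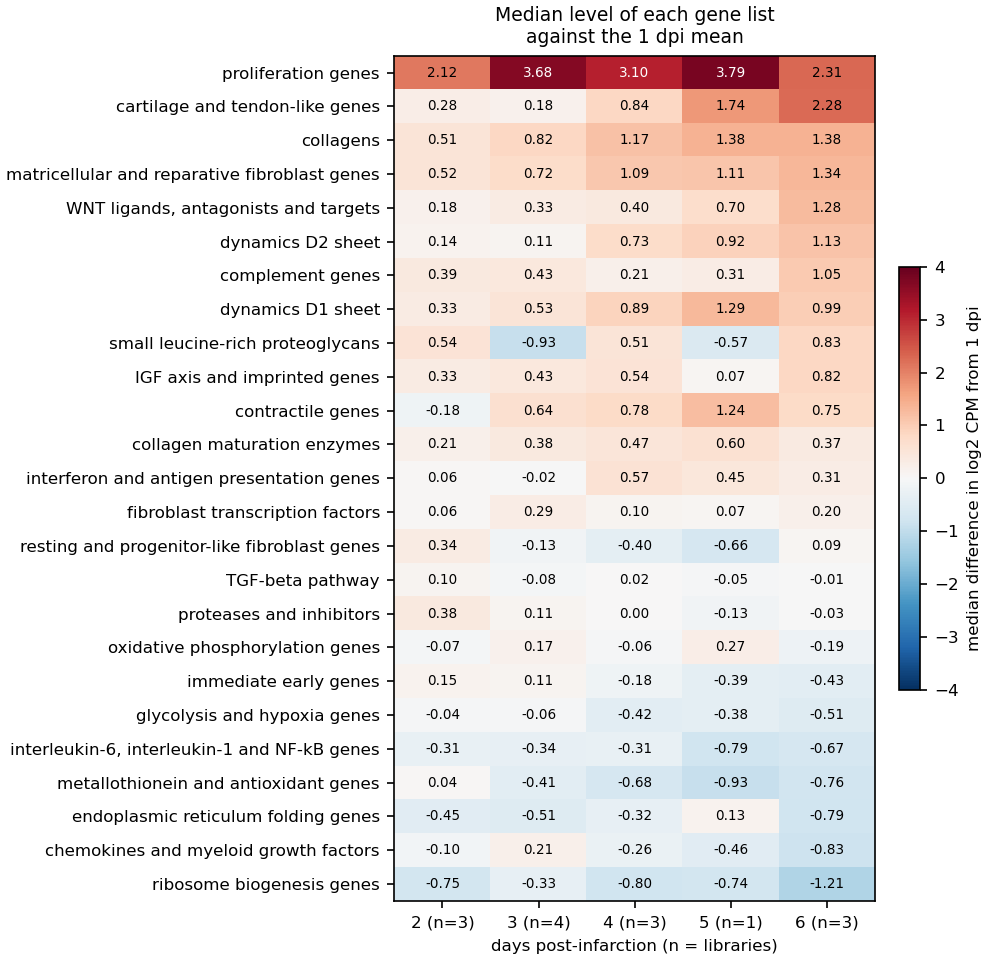
Colours and numbers give the median, over the members of each gene list (rows), of the difference in log2 CPM between the mean of a day (columns) and the mean of 1 dpi, with n libraries per day. Collagen medians are above 0 on every day and highest at 5 and 6 dpi (1.38), and ribosome biogenesis medians are below 0 on every day and lowest at 6 dpi (-1.21).

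The study grouped genes into dynamics D1 and D2 by RNA velocity in single *Postn*+ CFs of the first week after MI, and the genes on the supplementary sheets of these names, 43 and 57, were read as lists. They are only part of the genes so grouped. The lists are named here by their sheet, while the heading inside each sheet names the other dynamics, so which program each list belongs to is uncertain. Of 42 D1 genes tested, 22 were called higher at 6 dpi (52.4%) and none lower, with a median of 1.03. Of 55 D2 genes, 27 were called higher (49.1%) and 1, *Thbs1*, lower, with a median of 1.15. The D1 genes with the largest rise were *P4ha3*, *Eln* and *Comp*, and the D2 genes *Col8a2*, *Col11a1* and *Thbs4*, whose values are given above. The study chose these genes from CFs of the same process, and their direction is not independent evidence. When 1 library was left out, between 16 and 20 D1 genes and between 20 and 29 D2 genes were called higher, and with the sex-linked term 13 and 19.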

How the data were processed

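Bulk RNA-seq was made by a MARS-seq protocol adapted to bulk samples, which primes poly-A RNA with poly-dT and amplifies it by in vitro transcription, so that reads lie near transcript 3′ ends. The deposited table holds raw counts of reads per gene, which the authors made with bcl2fastq 1.2.4, STAR on mm10 and featureCounts. How reads that map to several genes were treated is not given in the sources used here. The table lists 31053 genes, of which 10484 had no count, and every column was used. Gene symbols and positions came from a GENCODE annotation of GRCm38, and promoter windows from RefSeq on GRCm38.p6.

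Groups were taken from the sample titles. A gene was tested when 3 or more libraries had 10 or more counts of it, and the tested genes held no less than 99.95% of each library's counts. edgeR 4.0.16 in R 4.3.3 was run with TMM normalization and its quasi-likelihood test on all 17 libraries, with day as the only factor. The standard error was obtained from the log2 fold change and its F statistic. Levels are CPM on TMM-normalized library sizes unless CPM of total counts is written, and log2 levels had a prior count of 2. Counts of the 6 replicate pairs within these days were compared by a chi-square test, whose statistic was 47.51 to 113.14 times its degrees of freedom. No pair thus differed by counting error alone, which does not exclude that libraries came from the same animal or sample. The fit was tested on simulated data.

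Genes named were, for rises and for falls, the 12 called genes that moved farthest, given 100 or more counts on average and separate values on the 2 days. From each list, up to 3 called members per direction averaging 20 or more counts and the member of highest level that was not called were named. The 6 most abundant genes with an interval within -0.5 to 0.5, genes that the study names, marker genes of other cell types and genes whose promoters are shown were added. The members and lists were chosen with earlier results of these data known. Alternatives were other normalizations, DESeq2 1.42.0, other filters, a robust fit, a minimum fold, a replicate block, other sets of libraries, a sex-linked term and leaving out each library. Results on some list members are not reported here.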

Additional observations from a re-analysis of the deposited data

How the results depend on the processing

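The count of 1654 changed genes stayed within 1.5 times under DESeq2 size factors, upper-quartile normalization, raw library sizes, DESeq2's own test (2366), both filters, a robust fit, a fit on only the 1 and 6 dpi libraries and a fit without 3 dpi. With raw library sizes the number called higher was 634. Against a minimum log2 fold change of 1, 212 genes were called, 161 higher and 51 lower, with 64 genes of the lists and 57 named genes. With the sex-linked term 661 were called, 388 higher and 273 lower, with 115 of the lists and 62 named. Against 1 dpi replicate 1 alone, whose *Xist* counts exceed its Y-linked counts, 580 were called, 361 higher and 219 lower, with 101 of the lists and 58 named, where the lone library is assumed to vary like the other groups. Leaving out 1 library gave 743 to 2497 changed genes, 458 to 1272 higher and 262 to 1225 lower. The cause of these differences was not tested, and a fit without a library has fewer samples.

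With the replicate number as a replicate block 1464 genes were called. The deviations of same-numbered libraries of 1 and 6 dpi had correlations of -0.061, 0.004 and -0.029. Those of differently numbered libraries ran from -0.055 to 0.068. No pairing by number was seen, but so few correlations cannot exclude one. Of 122 named genes, 97 were called and 72 of these in all 6 fits that leave out 1 library. The median standard error of 0.38 and 3 libraries per day limit what could be called. An unadjusted p under 0.05 was reached by 3758 genes.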

Other observations

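On the X chromosome, whose level can also follow the sex-linked pattern of the libraries, 448 genes were tested and 40 were called, 16 higher and 24 lower. The part of that pattern in these calls was not tested. *Bgn*, the collagen-binding proteoglycan biglycan, was at 2646, 2553 and 3190 CPM at 1 dpi and at 7803, 7444 and 7735 CPM at 6 dpi (1.45 ± 0.29, edgeR adjusted p = 0.003). *Tnmd*, the tendon protein tenomodulin, went from 0, 0.453 and 0.0978 to 7.49, 8.01 and 10.1 CPM. *Timp1*, an inhibitor of metalloproteases, went from 7611, 3377 and 4552 to 1054, 1212 and 1555 CPM, a fall of 2.02 ± 0.53. The glycolytic gene *Pgk1* fell by 1.53 ± 0.38 and the mitochondrial adenine nucleotide carrier *Slc25a5* by 1.87 ± 0.34. These genes were named after their values were seen.

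Of 6 Y-linked genes tested, 5 were called lower at 6 dpi, and of 13 mitochondrial genes none was called. Summed markers of erythroid cells were at 52.9, 27.5 and 118 CPM at 1 dpi and at 55.8, 187 and 506 CPM at 6 dpi, and those of mesothelial and epicardial cells at 133, 205 and 68 CPM and at 66.3, 457 and 68.4 CPM. Both overlapped between the days, with 6 dpi replicate 3 the highest for the first and 6 dpi replicate 2 for the second. Windows of genes called higher held the TEAD motif for 16.1% and windows of genes called lower for 7.79%, as a description.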
